A study of Mus musculus with 24 samples.

Results

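The genes described here are 10 genes of heart muscle, followed across lung arrays: Myh6, Myl7, Myl4, Actc1, Tnnt2, Tnni3, Nppa, Sln, Pln and Ryr2. Each was found by its symbol in the platform annotation and read from its own probe set, and all 10 were present among the 19505 genes measured. The arrays were mouse lung samples taken at 6 months of age, and 20 of 24 carried values. They fell into 4 groups, of 6 planned samples each: Marfan mice drinking sildenafil in water since the age of 6 weeks (Marfan sildenafil, 5 arrays, numbered 8 to 12), Marfan mice given vehicle (Marfan vehicle, 5 arrays, 20 to 24), wild-type mice given sildenafil (WT sildenafil, 4 arrays, 1, 4, 5 and 6), and wild-type mice given vehicle (WT vehicle, 6 arrays, 13 to 18). Sildenafil is an inhibitor of phosphodiesterase 5. The sources used here name neither the Marfan allele nor the strain or sex, and do not say whether each array was a separate animal, so p-values measure only the spread between these samples. Arrays are numbered group by group, so any batch effect running along that order cannot be told apart from the groups. Array 9, of the Marfan sildenafil group, stood apart from the other 19 for these genes, and the comparisons that hold it are given with and without it. It was set apart on the values of these same genes, so counts of genes past a threshold without array 9 are descriptions.

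In mice, sleeves of heart muscle cells continue from the left atrium along the pulmonary veins into the lung, so lung RNA can hold transcripts of atrial-type heart muscle. These cells share the contractile machinery of the heart: a thick filament of myosin heavy and light chains, a thin filament of actin with the troponin complex, and a sarcoplasmic reticulum whose calcium release channel and calcium pump regulators handle calcium during each beat. They also make the atrial hormone ANP. In such bulk samples, fewer cells of a type and less RNA per cell cannot be told apart.

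Of the 10 genes, Nppa varied most between arrays. Myl7 had the lowest value relative to the other arrays among the contractile genes on array 9. Actc1 alone of the 10 had normalized values that did not overlap between the Marfan groups without array 9, against 2% of all genes. Its deposited values overlapped. The promoters of these genes, on which the results below turn, are shown first. Each runs 5′ to 3′ on the gene's own strand, from 250 bases before the annotated start over the first 50 bases of the transcript (RefSeq, GRCm38.p6), and capitals mark motif matches on either strand. The regions are chr4:148000472-148000771 (+) for Nppa, chr11:5898733-5899032 (−) for Myl7 and chr2:114052826-114053125 (−) for Actc1.
Nppa: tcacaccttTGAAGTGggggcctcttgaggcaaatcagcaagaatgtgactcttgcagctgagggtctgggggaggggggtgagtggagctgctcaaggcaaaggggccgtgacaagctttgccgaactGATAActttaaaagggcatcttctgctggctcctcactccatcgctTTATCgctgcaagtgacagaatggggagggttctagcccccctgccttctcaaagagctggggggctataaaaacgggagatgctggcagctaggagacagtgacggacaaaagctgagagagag
Myl7: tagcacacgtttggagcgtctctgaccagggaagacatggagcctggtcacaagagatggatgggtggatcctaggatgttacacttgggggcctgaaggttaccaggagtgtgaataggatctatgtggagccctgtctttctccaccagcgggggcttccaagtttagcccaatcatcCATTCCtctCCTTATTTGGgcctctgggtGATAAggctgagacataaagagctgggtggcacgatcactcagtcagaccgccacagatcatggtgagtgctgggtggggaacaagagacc
Actc1: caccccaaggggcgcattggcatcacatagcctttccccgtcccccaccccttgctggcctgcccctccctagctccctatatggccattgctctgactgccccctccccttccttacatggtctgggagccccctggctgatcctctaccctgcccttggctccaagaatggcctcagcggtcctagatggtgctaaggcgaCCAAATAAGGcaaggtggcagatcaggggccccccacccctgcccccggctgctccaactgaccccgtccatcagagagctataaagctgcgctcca
The 300-base table matched 9 of the 10 genes, all but Sln. The motifs searched were the CArG box and the MEF2 site (by name), CATTCC (the MCAT element), GATAA (GATA factors) and TNAAGTG (NK2 homeodomain factors), and no CArG match overlapped a MEF2 match in any promoter. A CArG box, the site of serum response factor, was found in 2 of the 9 promoters, Myl7 (first base at position -61 from the start) and Actc1 (-47), and in 1.57% of all 27025 promoters. The Myl7 promoter also held CATTCC at -70 and GATAA at -41, and the capitals in it mark these 3 sites. CATTCC occurred in 3 of the 9 promoters (Myh6, Myl7 and Tnnt2) and in 14.6% of all. GATAA occurred in 5 of the 9 (Myl7, Tnnt2, Tnni3, Nppa and Pln) and in 25.8% of all, with Nppa holding 2 matches, at -121 and -75. TNAAGTG was found in Nppa alone among the 9, at -241, and in 11.5% of all. The MEF2 site was in 0 of the 9 and in 3.26% of all. A match of letters is a description and not a binding site.

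All values are log2 levels, as deposited and then quantile-normalized between arrays. Lung-defining genes were high on all 20 arrays (the alveolar type 2 gene Sftpc, surfactant protein C, lay between 13.01 and 13.21 on 19 arrays and at 13.14 on array 9). Before normalization, the median gene ranged from 5.45 to 6.59 over the arrays, and array 9, at 5.90, lay inside that range. This brightness partly followed the groups: it was 5.45 to 6.00 on WT vehicle arrays and 5.90 to 6.59 on those of the other groups. Comparisons with WT vehicle therefore also compare dimmer with brighter arrays. The 23 background probe sets had medians between 2.56 and 3.28, with array 9 at 2.72. Genes of the Y chromosome were low on 6 of the 20 arrays, at least 1 in each group, and the levels of the 10 heart muscle genes on those 6 arrays overlapped those on the other 13 without array 9. Signal was above the brightest background probe set of its own array in 186 of the 190 values of the 10 genes on the 19 arrays, and the 4 exceptions were all Ryr2.

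On array 9, each of the 10 genes was below its lowest value on the other 19 arrays, which was true of 13.8% of all genes. All 10 were also more than 1 log2 unit below the median of the other arrays, against 2.73% of all genes. The mean of the 10 was 5.41 on array 9 and ranged from 7.80 to 8.64 on the other 19. Nppa was lowest of all 19505 genes by this measure, at 4.92 against a median of 8.93 (16.1-fold lower). Next among the 10 came Myl7 at 5.41 against 8.71 (9.81-fold lower), Tnnt2 at 5.75 against 8.99 (9.48-fold lower) and Sln at 5.21 against 8.46 (9.47-fold lower). Myl4, Pln, Myh6, Tnni3 and Actc1 were also among the lowest 25 genes, between 4.47-fold and 8.13-fold lower. Ryr2 had the smallest gap, at 5.04 against 6.04 (2.01-fold lower). Some signal remained on array 9: all 10 genes were above the median of its background probe sets, but only Myl4, Actc1 and Tnnt2 were above the brightest of them, so the values of the other 7 lie near background and their folds depend on it.

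**Figure D1:**
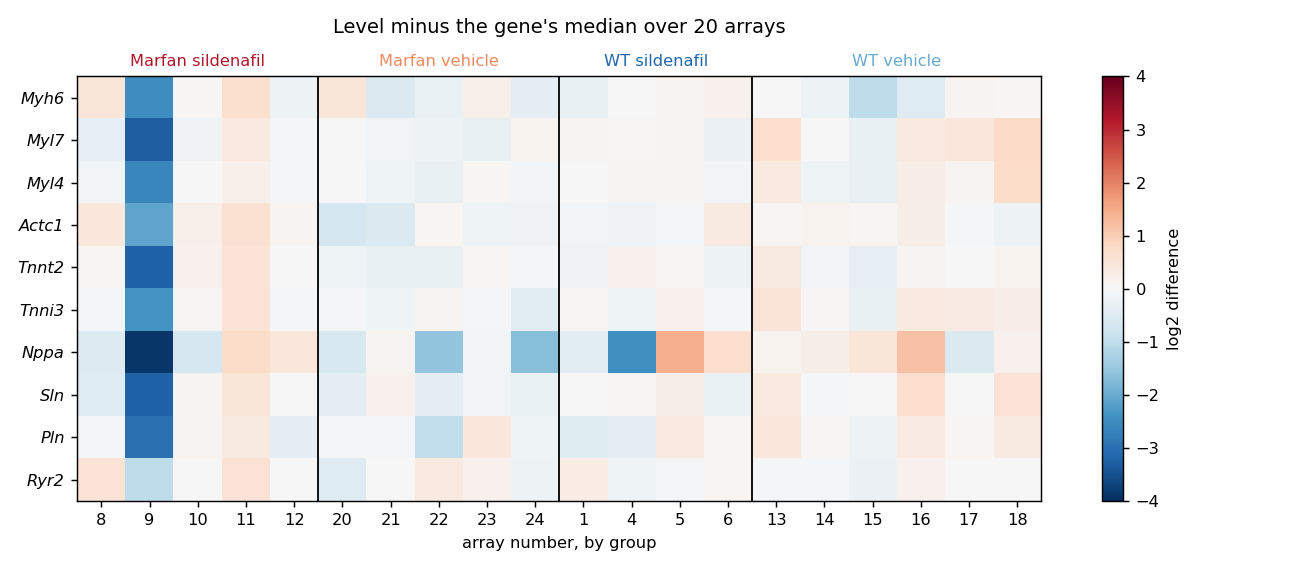
Each square is the log2 level of a gene (rows) on an array (columns, by group) minus the gene's median over the 20 arrays, red higher and blue lower. All 10 genes were low on Marfan sildenafil array 9, and Nppa varied on other arrays as well.

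The thick-filament genes are Myh6, the alpha myosin heavy chain of atrial and adult mouse heart, and the atrial myosin light chains Myl7 (regulatory) and Myl4 (essential). Myl7 was at 8.39, 5.41, 8.57, 9.08 and 8.66 in Marfan sildenafil arrays 8 to 12 and at 8.71, 8.60, 8.51, 8.42 and 8.86 in Marfan vehicle arrays 20 to 24. It was at 8.82, 8.74, 8.81 and 8.48 in WT sildenafil arrays and between 8.40 and 9.46 (median 9.12) in WT vehicle arrays. The highest WT vehicle array, 18, was above all others, but the groups overlapped. Myl4 ran the same way: it was highest, at 10.23, on that same array and, array 9 aside, lay between 9.18 and 9.87 on all others. Array 18 was the dimmest before normalization, with the median gene at 5.45, and neither gene was highest there in the deposited values. Deposited Myl7 was at 8.79 on array 18 and 9.48 on Marfan sildenafil array 11, and deposited Myl4 at 9.63 and 10.07. Myh6 ranged from 6.09 to 7.76 over the 19 arrays, with its lowest value in WT vehicle array 15 and its highest in Marfan sildenafil array 11.

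The thin-filament genes are Actc1 (cardiac alpha-actin), Tnnt2 (cardiac troponin T, which anchors the complex to tropomyosin) and Tnni3 (cardiac troponin I, its inhibitory subunit). Actc1 was at 9.90, 7.37, 9.69, 10.09 and 9.57 in Marfan sildenafil arrays 8 to 12 and at 8.77, 8.89, 9.56, 9.28 and 9.32 in Marfan vehicle arrays 20 to 24. It was at 9.36, 9.32, 9.41 and 9.83 in WT sildenafil arrays and between 9.26 and 9.69 (median 9.54) in WT vehicle arrays. Without array 9, every Marfan sildenafil array was above every Marfan vehicle array for Actc1, narrowly (lowest 9.57 in Marfan sildenafil, highest 9.56 in Marfan vehicle). This held only after normalization. In the deposited values Actc1 was at 9.67 and 9.53 on Marfan sildenafil arrays 10 and 12, below Marfan vehicle array 22 at 9.88. With normalized values and without array 9, 2% of all genes did not overlap between these groups. Tnnt2 was the steadiest of the 10 genes over the 19 arrays, between 8.63 and 9.52, and its highest value, like that of Tnni3 (6.14 to 7.14), was on Marfan sildenafil array 11. Both sets overlapped between all groups.

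Nppa encodes the precursor of atrial natriuretic peptide. It was at 8.27, 4.92, 8.16, 9.56 and 9.25 in Marfan sildenafil arrays 8 to 12 and at 8.17, 8.93, 7.25, 8.70 and 7.11 in Marfan vehicle arrays 20 to 24. It was at 8.36, 6.35, 10.27 and 9.48 in WT sildenafil arrays 1, 4, 5 and 6, and between 8.23 and 9.99 (median 9.03) in WT vehicle arrays. Both the lowest and the highest of the 19 values fell within the WT sildenafil group, 15.1-fold apart. The standard deviation over the 19 arrays was 0.99, against a median of 0.25 over all genes, and 13 genes (0.0666%) including Nppa had one as large. On WT sildenafil array 4, where Nppa was lowest, the mean of the 10 genes was 7.84, inside the range of the other arrays. The other 9 genes had standard deviations between 0.23 (Tnnt2) and 0.40 (Myh6) over the 19 arrays.

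The calcium-handling genes are Sln (sarcolipin) and Pln (phospholamban), small membrane proteins that inhibit the calcium pump of the sarcoplasmic reticulum, and Ryr2, the channel that releases its calcium. Sln was at 7.94, 5.21, 8.56, 8.95 and 8.45 in Marfan sildenafil arrays 8 to 12 and at 8.10, 8.61, 8.07, 8.36 and 8.19 in Marfan vehicle arrays 20 to 24. It was at 8.46, 8.52, 8.69 and 8.17 in WT sildenafil arrays and between 8.36 and 9.11 (median 8.65) in WT vehicle arrays. These groups overlapped. Pln ranged from 6.71 (Marfan vehicle array 22) to 8.13 (Marfan vehicle array 23) over the 19 arrays, so that its lowest and highest values were in the same group. Ryr2 ranged from 5.52 to 6.61, with the 2 highest values, 6.60 and 6.61, in Marfan sildenafil arrays 8 and 11.

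**Figure D2:**
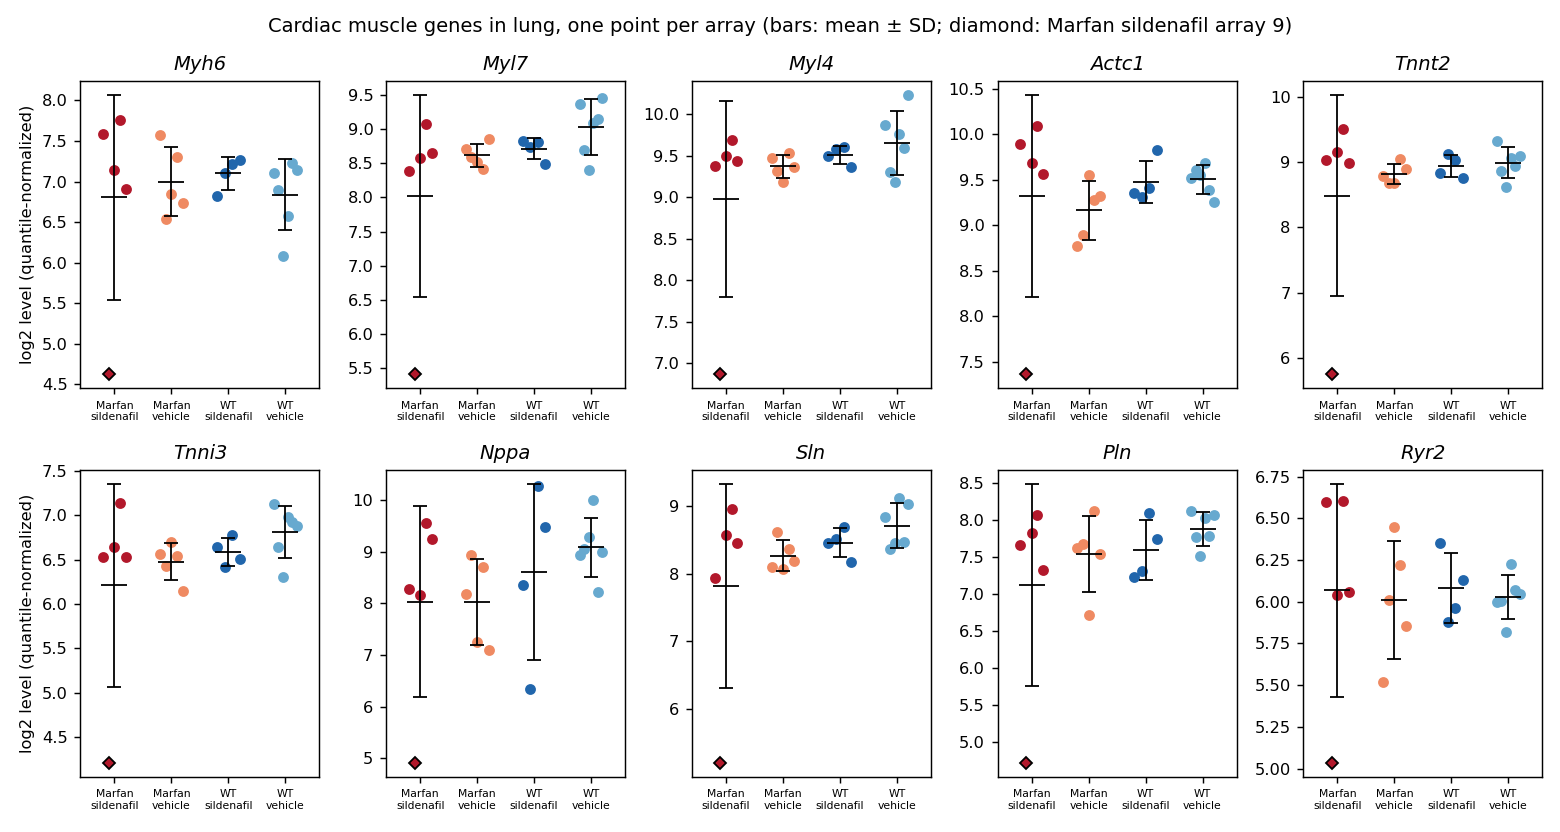
Quantile-normalized log2 level of each gene, 1 point per array, in the 4 groups (x axis), with bars for mean ± SD. Marfan sildenafil array 9, the diamond, lies below every other array in all 10 panels, and Nppa is spread over 6.35 to 10.27 on the other arrays.

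The first comparison was of Marfan with wild-type lungs under vehicle. Of the 10 genes, 9 had lower means in Marfan vehicle lungs, but none passed the test of limma at an adjusted p of 0.05 (0 of 10, against 0% of all genes), nor at an unadjusted p of 0.05 (0 of 10, against 6.26% of all genes). The median difference of the 10 was -0.34 on the log2 scale, while that of all genes was -0.0048 and 51.2% of all genes were lower. Nppa averaged 8.03 ± 0.83 in Marfan vehicle lungs (SD, n = 5) and 9.08 ± 0.57 in WT vehicle lungs (SD, n = 6). Its difference of -1.05 ± 0.64 (SE; 95% interval -2.36 to 0.26) was the lowest of all 19505 genes, with an adjusted p of 0.808. Myl7 averaged 8.62 ± 0.17 in Marfan vehicle lungs and 9.03 ± 0.41 in WT vehicle lungs, a difference of -0.41 ± 0.39 (SE; adjusted p = 0.880). Sln differed by -0.44 ± 0.39 (SE; adjusted p = 0.867) and Actc1 by -0.34 ± 0.30 (SE; adjusted p = 0.864), while Myh6 was 0.16 ± 0.36 higher (adjusted p = 0.969). The spread in this fit is shared by all groups and takes in array 9. Without that array the differences are the same and their errors smaller: 6 of the 10 (Myl7, Myl4, Actc1, Tnni3, Nppa and Sln) were past an unadjusted p of 0.05, against 7.81% of all genes, and 0 of 10 passed after adjustment (2 of all genes did, 0.0103%). The lowest adjusted p of the 10 was then 0.587, for Myl7 and Sln. Array 9 was set apart on the values of these same genes, so leaving it out narrows their spread more than that of most genes. The SD of Myl7 over the arrays fell from 0.815 to 0.321, and the median SD of all genes from 0.266 to 0.254. The count of 6 partly follows from that choice and cannot be weighed against the share of all genes.

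Under sildenafil, all 10 genes had lower means in Marfan lungs than in wild-type lungs (median difference -0.46, and 51.3% of all genes lower), and again 0 of 10 passed with or without adjustment, against 0% and 3.89% of all genes. Myl7 averaged 8.02 ± 1.48 in Marfan sildenafil lungs (SD, n = 5) and 8.71 ± 0.16 in WT sildenafil lungs (SD, n = 4), the largest difference at -0.69 ± 0.43 (SE; adjusted p = 1.00). This direction rested on array 9: without it, Myl7 averaged 8.67 ± 0.29 in Marfan sildenafil lungs (n = 4), the median difference of the 10 turned to 0.16 and 8 of the 10 were higher. One gene, Actc1, was then past an unadjusted p of 0.05 (0.33 ± 0.15 SE; adjusted p = 1.00), where 3.22% of all genes were.

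In Marfan mice, sildenafil against vehicle gave lower means for 7 of the 10 genes (median difference -0.30, and 51.6% of all genes lower), with 0 of 10 past either threshold, against 0% and 6.71% of all genes. Nppa averaged 8.03 in both groups, with an SD of 1.84 in Marfan sildenafil lungs and 0.83 in Marfan vehicle lungs. Without array 9 it averaged 8.81 ± 0.70 in Marfan sildenafil lungs (n = 4), a difference of 0.78 ± 0.50 (SE; adjusted p = 0.808). Here too the sign turned without array 9, when all 10 were higher in Marfan sildenafil lungs (median difference 0.28). Actc1 then averaged 9.81 ± 0.23 in Marfan sildenafil lungs (SD, n = 4) and 9.16 ± 0.33 in Marfan vehicle lungs (SD, n = 5), a difference of 0.65 ± 0.14 (SE) with an adjusted p of 0.305. It was the 1 gene of the 10 whose groups did not overlap in that setting, against 2% of all genes, though its deposited values overlapped. Tnnt2 was 0.35 ± 0.13 higher (SE; adjusted p = 0.631), and these 2 genes were past an unadjusted p of 0.05, against 6.87% of all genes. With array 9 kept, the same difference for Actc1 was 0.16 ± 0.31 (SE; adjusted p = 0.960).

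In wild-type mice, a comparison that does not hold array 9, 8 of the 10 genes had lower means under sildenafil than under vehicle (median difference -0.18, and 50.4% of all genes lower), and 0 of 10 passed with or without adjustment, against 0% and 9.1% of all genes. Nppa had the largest difference, at -0.47 ± 0.68 (SE; adjusted p = 0.890), followed by Myl7 at -0.32 ± 0.41 (adjusted p = 0.875), and Myh6 was 0.26 ± 0.38 higher (adjusted p = 0.893). With the spread taken from 19 arrays, 0 of 10 were past an unadjusted p of 0.05, against 11.1% of all genes. Array 4 held the low Nppa value of the WT sildenafil group.

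Whether the sildenafil difference itself differed between Marfan and wild-type mice was tested by the interaction of the 2 factors. It passed for 0 of 10 genes with or without adjustment (0% and 4.47% of all genes), with a median of -0.16 and values from -0.46 for Myh6 to 0.47 for Nppa. Without array 9 it was above 0 for all 10 (median 0.43), 3 of the 10 (Actc1, Tnnt2 and Tnni3) were past an unadjusted p of 0.05, against 4.33% of all genes, and 0 of 10 passed after adjustment (adjusted p = 0.995 for each). The values for Myh6 and Nppa were then 0.09 ± 0.30 and 1.25 ± 0.69 (SE). Actc1 had an interaction of 0.67 ± 0.19 (SE) in that setting and 0.19 ± 0.44 with array 9 kept.

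Averaged over treatments, the 10 genes were lower in Marfan lungs by a median of -0.38, and 0 of 10 passed (0% and 5.35% of all genes). The difference was -0.82 ± 0.47 for Nppa (SE; adjusted p = 0.918), the lowest of all genes, and -0.55 ± 0.29 for Myl7 (adjusted p = 0.918). Without array 9 these 2 differences were -0.43 ± 0.35 and -0.23 ± 0.11 (SE), the median of the 10 was -0.11 and 3 of the 10 were higher, with 0 of 10 past an unadjusted p of 0.05 (5.13% of all genes). Averaged over genotypes, the sildenafil difference had a median of -0.24 and 0 of 10 passed (0% and 10.9% of all genes). Without array 9 this median was 0.08; 1 gene, Actc1, was past an unadjusted p of 0.05 (0.31 ± 0.10 SE; adjusted p = 0.129), against 13% of all genes, and 0 of 10 passed after adjustment, where 74 of all genes (0.379%) did. The comparisons share groups, so their values are not independent of each other.

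**Figure D3:**
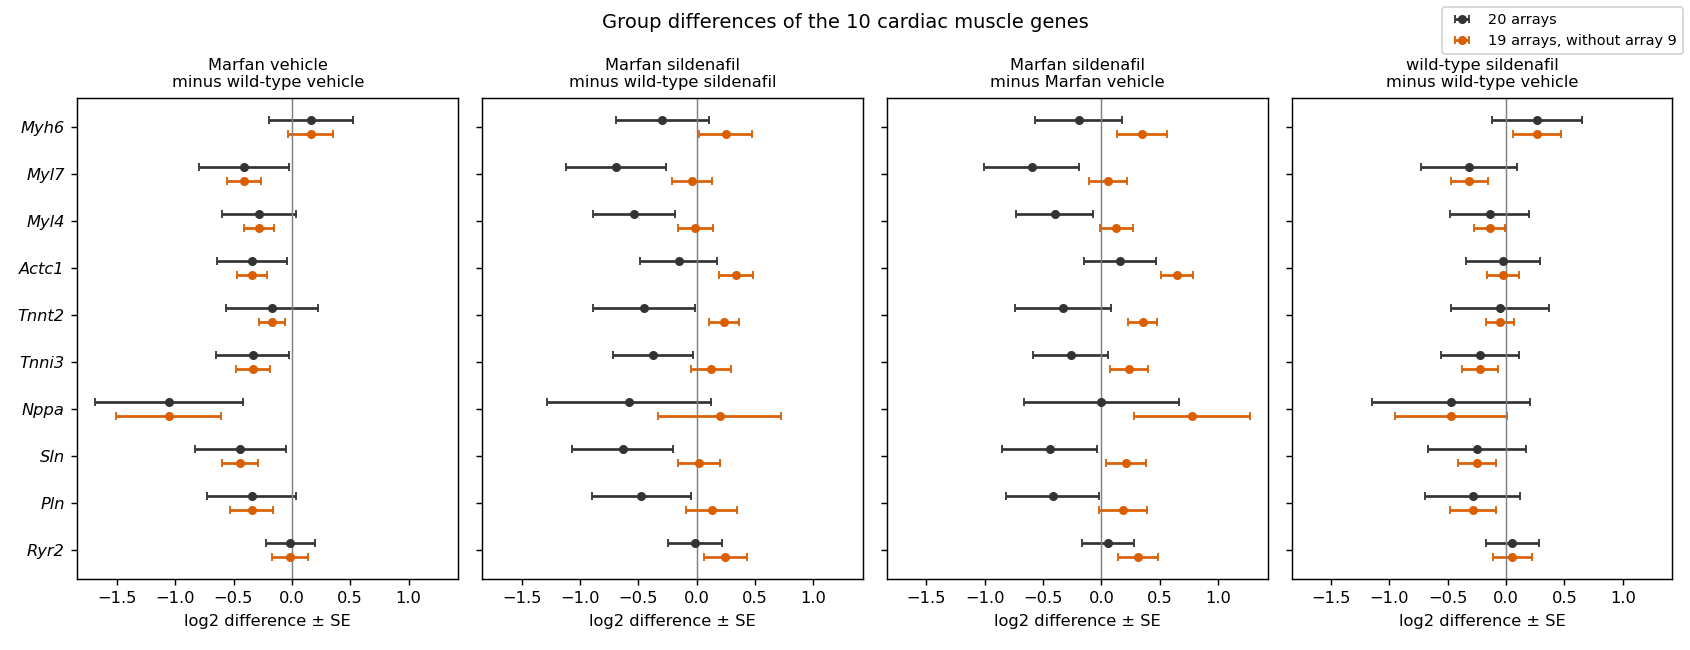
Log2 difference ± SE from the fit for each gene (rows) in 4 comparisons (panels), in black with all 20 arrays and in orange with the 19 arrays without array 9. In the panels that hold the Marfan sildenafil group most points move to the right of 0 without array 9, while the other panels keep their values with smaller errors.

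Across the 20 arrays the 10 genes varied together, with Pearson's r between 0.51 and 0.98 over the 45 pairs (median 0.79). Much of this came from array 9: over the other 19 arrays r ranged from -0.12 to 0.84, with a median of 0.38, and 16 pairs were above 0.5. The closest pair over the 19 arrays was the atrial light chains Myl7 and Myl4 (0.84), and Sln followed Myl4 at 0.75. Tnni3 had the highest r with the mean of the other 9 genes (0.79 over 19 arrays), then Pln (0.70) and Tnnt2 (0.67). Myh6 (0.23), Ryr2 (0.26), Actc1 (0.34) and Nppa (0.42) followed it less closely. Actc1 and Ryr2 were closest to each other (0.67), and Nppa was closest to Pln (0.61). The pairs share arrays and their normalization, and the values are descriptions.

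**Figure D4:**
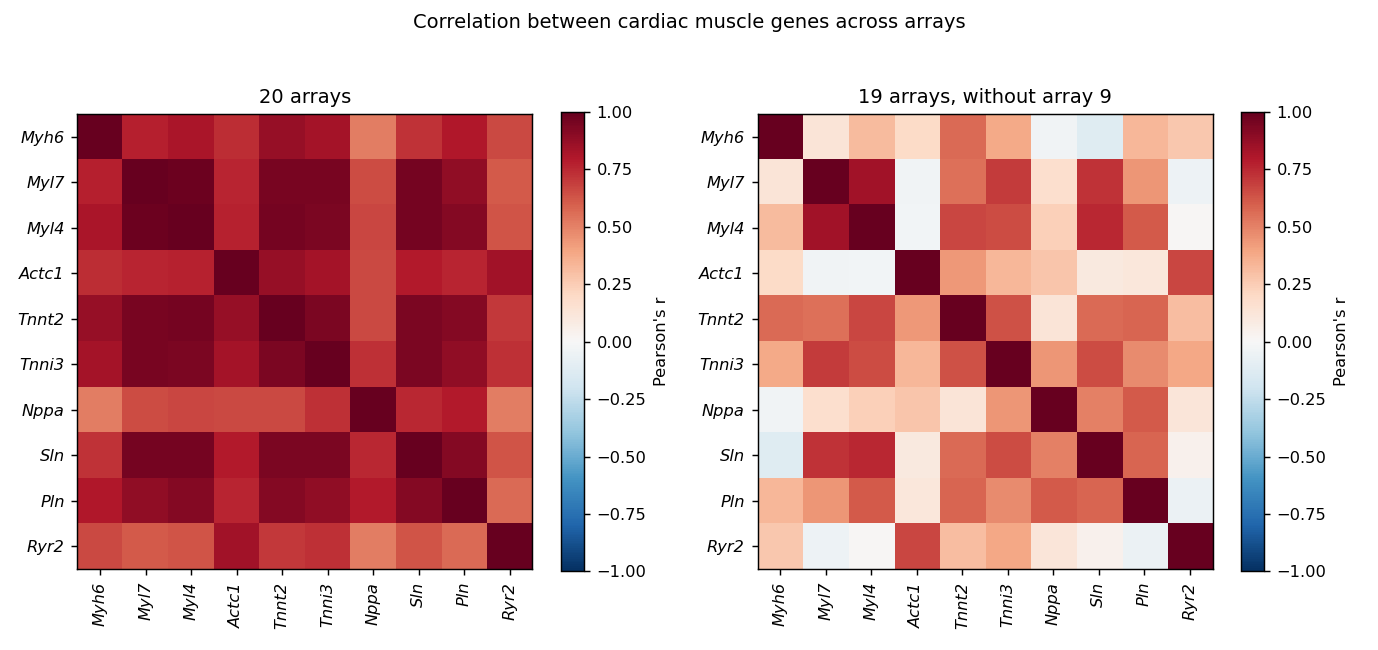
Pearson's r between the 10 genes over the 20 arrays (left) and over the 19 arrays without array 9 (right), with the colour scale from -1 to 1. The pairs run from 0.51 to 0.98 on the left and from -0.12 to 0.84 on the right.

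The genes whose pattern over the 20 arrays was most like the mean of the 10, by Spearman's rho among 19494 others, began with Myoz2 (calsarcin-1, a Z-disc protein; rho 0.84, and Pearson's r 0.83 over 19 arrays), Casq2 (cardiac calsequestrin, which holds calcium in the sarcoplasmic reticulum; 0.82), Ctdspl2 (a phosphatase-like protein; 0.81) and Csrp3 (muscle LIM protein; 0.80). These genes were picked as the extremes of 19494 over 20 arrays, and their rho was not tested. Of the 20 highest, 8 were on lists of heart muscle genes, which hold 87 of the measured genes. The others of these 8 were Tnnc1 (troponin C, 0.74), Smpx (0.74), Ttn (titin, 0.72), Mb (myoglobin, 0.70) and Pgam2 (muscle phosphoglycerate mutase, 0.68). The remaining members of the 20 were Mdh1b (0.77), Bbof1 (0.72), Car3 (0.70), Cfap53 (0.70), Lrrc36 (0.70), Klra9 (0.70), Zfp341 (0.69), Ank1 (0.68), Iqca (0.68), Tsga10 (0.67) and Cyp2c23 (0.67). Several of these were hardly lower on array 9: Ctdspl2 differed there by -0.17 from the median of the other arrays, Tsga10 by -0.20 and Cfap53 by -0.22, against -3.76 for Myoz2 and -3.26 for Csrp3. At the other end stood Orai2 (rho -0.78), H2-D1 (-0.77), Ntsr1 (-0.75), Rnf223 (-0.75) and Ranbp3 (-0.74). Some of the named genes were near background, where a pattern is less certain. Mean levels were 5.11 for Casq2, 4.61 for Mdh1b, 4.72 for Cyp2c23, 4.22 for Ntsr1 and 4.25 for Rnf223. The brightest background probe set, before normalization, lay between 5.09 and 6.85 over the arrays.

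Heart muscle genes outside the 10 were taken from 8 lists holding 90 genes, of which 87 were measured. None of the 87 passed after adjustment in any of the 7 comparisons, and their median differences lay between -0.04 and 0.0002. Without array 9, 0 of the 87 passed after adjustment either, but their medians were 0.11 for Marfan against WT under sildenafil, 0.08 for sildenafil against vehicle in Marfan mice, 0.14 for the interaction, 0.03 for Marfan averaged and 0.06 for sildenafil averaged. On array 9, 46 of the 87 were below all other arrays (52.9%, against the 13.8% of all genes) and 27 were more than 1 log2 unit below their median there. Z-disc and stress genes were low in 9 of 14 cases, led by Myoz2 (5.02 on array 9 against 8.41 to 9.42 on the others) and Csrp3 (3.88 against 6.62 to 7.75). Genes of heart muscle metabolism were low in 13 of 15, led by Mb (6.08 against 8.35 to 9.34) and Fabp3, the heart fatty acid binding protein (5.90 against 8.01 to 9.08). Thin-filament genes included Actn2, alpha-actinin 2 (4.80 against 6.56 to 7.92), and Tnnc1 (5.57 against 6.61 to 7.54). The list of channels and junctions had 3 of 13 genes below all other arrays, that of transcription factors 5 of 13, and the calcium-handling list 3 of 10. Of that list, Atp2a2, the calcium pump SERCA2, was not among them, at 9.65 on array 9 and between 9.24 and 10.08 elsewhere. In the other direction, 5 of the 87 were above all other arrays, against 12.4% of all genes. They included Corin, the protease that processes the precursor of ANP, at 7.67 on array 9 and between 3.81 and 5.08 on the others. Corin was named after its value was seen.

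Ventricular markers were mostly near background, and the markers in these sentences are named as the defining ones of their cell type, outside the rule for naming genes. Myl2, the ventricular regulatory light chain, Irx4 and Nppb, the B-type natriuretic peptide, were above the brightest background probe set on 0 of 20 arrays, as was Bmp10, which marks the right atrium in adult mice. Among the ventricular list, Myh7 was above it on 15 arrays, Hey2 on 16 and Myl3 on 2. Skeletal muscle genes were near background as well: Myh1, Myh2, Myh4, Acta1 and Pvalb were above the brightest background probe set on 0 of 20 arrays, Tnnt3 on 1, and none of the 23 genes was above it on most arrays.

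Other cell types also differed on array 9. Of all genes, 13.8% were below all other arrays there. Endothelial genes were so in 10 of 11 cases (median -1.15), among them Cdh5 (10.05 against 10.77 to 11.64) and Cldn5 (9.15 against 10.30 to 10.86). Their mean level was 8.96 on array 9 and ran from 9.83 to 10.22 on the others. Smooth muscle genes were below all others in 10 of 12 cases (mean 7.78, against 8.28 to 8.96 elsewhere). Alveolar type 1 genes were so in 7 of 8 (mean 9.53, against 10.07 to 10.48), with Hopx at 9.32 against 10.25 to 10.73. The remaining type 1 gene, Pdpn, was above all others (9.90 against 9.36 to 9.80). The 3 erythrocyte genes measured were all below the other arrays there, with Alas2 at 7.48 against 8.93 to 10.53. Of the alveolar macrophage genes, 5 of 9 were above all other arrays, against 12.4% of all genes (mean of the list 8.94, against 7.64 to 8.36). They included Mrc1 (10.11 against 7.48 to 8.48), Plet1 (10.86 against 9.29 to 9.78) and Chil3 (12.00 against 9.89 to 11.62). The rest of that list, among them Car4 (9.93 against 9.48 to 10.20), lay inside the range of the other arrays. The alveolar type 2 list differed by a median of 0.15, with 4 of 10 genes above all others, against the same 12.4% of all genes. The part of these shifts, and of the share of tissue sampled, in the low heart muscle genes was not tested. Adipocyte genes did not go 1 way on array 9: of the 8 measured, 2 were below all other arrays and 1 was above. Of the 4 with the highest levels, Fabp4 was above all others there (10.15 against 6.86 to 9.15), Cidec below (5.11 against 6.09 to 7.10), and Retn and Adipoq inside the range. Their r with the mean of the 10 over the 19 arrays was 0.58 for Fabp4, 0.57 for Retn, 0.53 for Adipoq and 0.16 for Cidec.

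**Figure D5:**
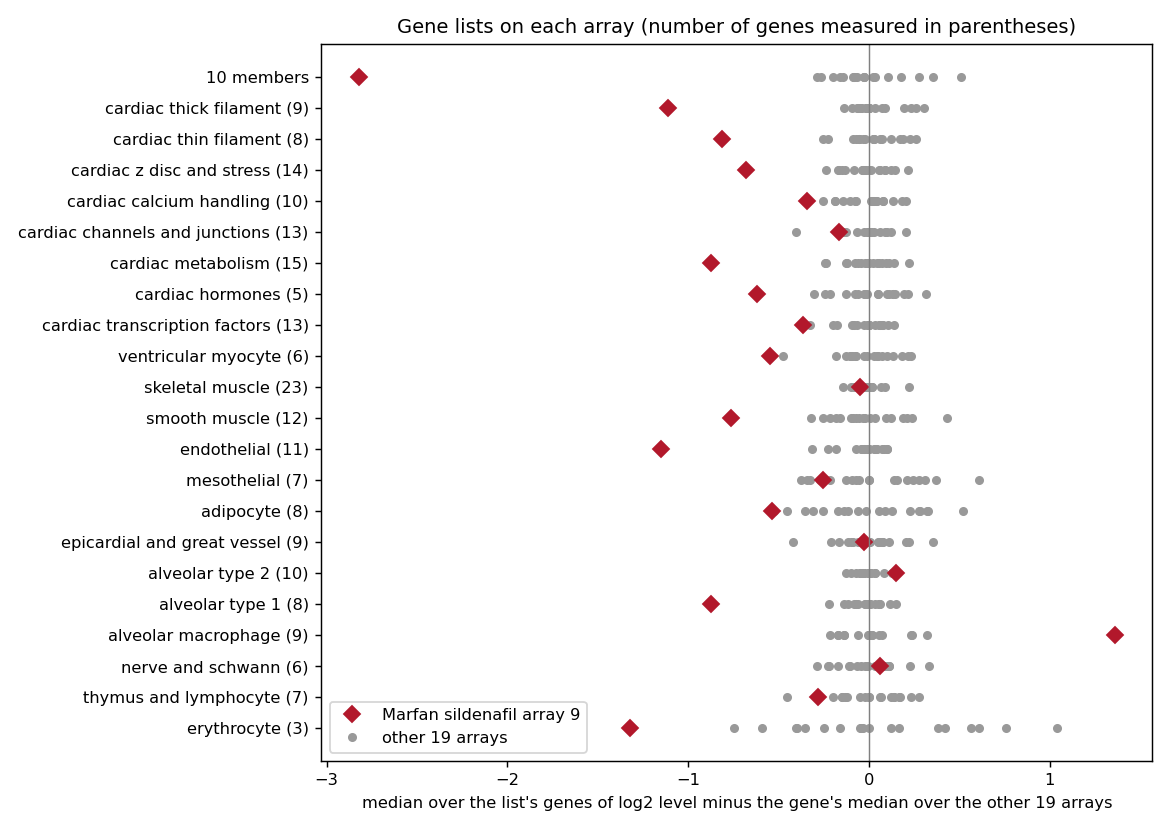
Median over each list's genes (rows, with the number measured) of the log2 level minus the gene's median over the other 19 arrays, for Marfan sildenafil array 9 (diamonds) and each of the other 19 arrays (grey points). The 10 heart muscle genes have the lowest median on array 9, at -2.82, and alveolar macrophage genes the highest, at 1.36.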

How the data were processed

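RNA from mouse lung was hybridised to Affymetrix arrays, from 700 pg of total RNA with integrity numbers above 8.5, per the labels' protocols. The deposited values are log2 expression levels, which the submitters' processing notes credit to Affymetrix Expression Console and RMA (versions not given). The file lists 24 samples, of which 4 that failed quality control carry no values and were not used. Of 29129 entries, 22206 were transcript probe sets, 19572 of them with 1 symbol in the platform annotation. The other 2634 had no symbol or more than 1 there and were not used as genes. All 22206 were quantile-normalized between arrays. Where a gene had several probe sets, the one with the highest normalized mean over the 20 arrays was then kept, giving 19505 genes. These were fitted together in limma 3.58.1 (R 4.3.3, with 4 group means, eBayes with trend and 16 residual degrees of freedom). The 7 comparisons used Benjamini-Hochberg adjustment over all 19505 genes at 0.05. No replicate numbers are shared between groups, so no pairing was used. The procedure was tested on simulated data with independent noise and no outlying array, so that test does not cover the effect of array 9. Descriptions and figures used Python 3.11.15. The number of arrays limits precision. The 10 genes, the gene lists and the tests were chosen with earlier results of these data known. Named genes are the 10, on each list those past the threshold and up to 4 others (by likeness to the mean of the 10 for heart lists, by level for others), and the 20 most and 5 least like that mean, skipping predicted genes, chemoreceptors, small RNAs and antigen receptor segments. Alternatives tried were the deposited values unnormalized, median scaling, all probe sets averaged, a filter on the dimmer 50% of genes, array weights, array brightness or Y-linked genes as covariates, untrended robust eBayes, fits of 2 groups alone, and each array left out. Leaving array 9 out of the normalization too was added after seeing the data.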

Additional observations from a re-analysis of the deposited data

Results flagged for a closer look

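Within the Marfan sildenafil group, array 9 lay far below the other 4 arrays for 8 of the 10 genes and for their mean, with a gap to the nearest array that took up most of the group's range. The values on array 9 were 4.63 for Myh6 (others 6.91 to 7.76), 5.41 for Myl7 (others 8.39 to 9.08), 6.87 for Myl4 (others 9.38 to 9.69) and 7.37 for Actc1 (others 9.57 to 10.09). They were 5.75 for Tnnt2 (others 8.99 to 9.52), 4.21 for Tnni3 (others 6.53 to 7.14), 5.21 for Sln (others 7.94 to 8.95) and 4.72 for Pln (others 7.33 to 8.07). The mean of the 10 genes was 5.41 (others 8.12 to 8.64). All 9 such gaps among the 44 groups of values examined were on array 9. That array had already been set apart for these genes, so chance, which would mark about 1 in 20 groups, was not tested here. The genes vary together across the arrays, so these are not separate observations.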

How the results depend on the processing

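None of the 10 genes passed the adjusted threshold in the comparisons and alternatives run, 31 for the 4 pairs of groups and 30 for the interaction and the averaged comparisons, where a fit of 2 groups alone has no meaning. The filter on dim genes left 9 of the 10, without Ryr2. The size and sign of their median difference depended on array 9, and leaving out array 9 turned the sign of 28 of the 70 single values. With array 9 left out, the medians were 0.16 (Marfan against WT under sildenafil), 0.28 (sildenafil against vehicle in Marfan), 0.43 (interaction), -0.11 (Marfan averaged) and 0.079 (sildenafil averaged), and the range of the mean over arrays was 0.85 instead of 3.23. Normalizing without it as well, an alternative chosen after seeing the data, gave 0.16, 0.27, 0.43, -0.11, 0.079 and 0.85. Leaving out each array in turn gave -0.71 to 0.16, -0.54 to 0.28, -0.40 to 0.43, -0.48 to -0.11 and -0.36 to 0.079 for those 5 medians and 0.85 to 3.23 for the range, with the lowest values of the first 3 without Marfan sildenafil array 11. The Marfan against WT median under vehicle stayed between -0.40 and -0.28, and the WT sildenafil against vehicle median between -0.27 and -0.13. Array weights, which count outlying arrays less, gave 0.053, 0.19, 0.27, -0.15 and 0.019 for the same 5. Array brightness as a covariate gave -0.92 (Marfan against WT, vehicle), -0.83 (WT sildenafil against vehicle), 0.45 (interaction), -0.66 (Marfan averaged) and -0.59 (sildenafil averaged). The cause was not tested. Unnormalized deposited values gave -0.060 (Marfan against WT, vehicle), 0.16 (WT sildenafil against vehicle), -0.45 (interaction) and a range of 3.83. There the median of all genes itself was 0.25, 0.28 and -0.24 in those 3 comparisons, and relative to it the 10 genes lay at -0.31, -0.12 and -0.21. Values near background on array 9 limit how exactly its gaps can be given.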
